A study of Homo sapiens with 4 samples.

Results

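The MHC class II chains, the invariant chain CD74 and the class II transactivator CIITA were followed over 4 days of IκBα super-repressor induction in the human myeloma line EJM. Myeloma is a malignancy of plasma cells, the B-lineage cells that secrete antibody. The members were HLA-DRA, HLA-DRB1, HLA-DPA1, HLA-DPB1, HLA-DQA1, HLA-DQB1, HLA-DMA, HLA-DMB, CD74 and CIITA, 10 genes set against 4604 named genes on the array. They were chosen by name, with earlier results of these data known, so comparisons with all features are not independent of that choice. A probe was annotated to 9 of the 10, with none for HLA-DMA, and they had 60 probes of the 15246 in the table. A value on at least 1 array was given for 57 of these probes and a value on all 4 arrays for 39.

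The induced group was EJM cells carrying a tetracycline-repressor-controlled IκBα super-repressor and treated with 20 µg/ml doxycycline for 1, 2, 3 or 4 days, and the reference in every case was uninduced cells of the same line. Both groups therefore carried the transgene, and only the induced cells received doxycycline. NF-κB factors are kept out of the nucleus by IκBα, and the super-repressor version is not degraded on signalling, so that it keeps holding them. Each day had 1 two-colour array, with induced RNA in Cy5 and uninduced RNA in Cy3 and no dye swap. The sources used here do not say whether the line was 1 clone or the uninduced RNA 1 preparation. Values are log2 ratios of induced over uninduced cells, so a negative ratio is lower in induced cells. The direction was taken from the dyes in the labels and the base of the logarithm was taken as 2, and neither is stated with the values. A ratio carries no expression level, so levels of different genes could not be compared and the plasma cell identity could not be checked against marker levels. In bulk RNA, fewer cells of a type and less RNA per cell cannot be told apart.

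MHC class II molecules are pairs of an alpha and a beta chain that present peptides from endocytosed proteins to CD4+ T cells. The classical pairs are HLA-DR, HLA-DP and HLA-DQ. CD74 binds newly made pairs, blocks their groove and directs them to endosomes, where HLA-DM exchanges its remnant for peptide. CIITA does not bind DNA itself but is recruited to the X and Y boxes of these promoters by the RFX and NF-Y factors. B cells express the genes constitutively, and in normal plasma cells CIITA is repressed by PRDM1 (Blimp-1).

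The promoter sequences are shown because X and Y box control is described for the class II chains and CD74, which had unlike ratios in the array data. That description does not cover CIITA, the factor recruited to the boxes. A RefSeq entry (GRCh38.p14) was present for 8 of the 10 members, with no entry for HLA-DRA or CIITA. The letters AGNNACNGA were searched for the X box and ATTGG for the Y box, on both strands, over the 250 bases before each annotated start. The letters of both were chosen after these promoters had been looked at. The X letters occurred in 12.3% and the Y letters in 32.0% of all 35116 promoters of the same length, and X followed by Y within 15 to 30 bases on the gene strand in 0.122%. A total of 4 members held that arrangement. Capitals mark X and Y matches and the sequences run 5′ to 3′ on the gene strand.
HLA-DRB1, chr6:32589884-32589933, minus strand: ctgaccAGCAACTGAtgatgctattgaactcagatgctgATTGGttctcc
HLA-DQA1, chr6:32637298-32637348, plus strand: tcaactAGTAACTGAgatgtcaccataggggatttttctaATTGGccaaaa
HLA-DQB1, chr6:32666735-32666784, minus strand: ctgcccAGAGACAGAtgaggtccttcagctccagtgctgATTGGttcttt
HLA-DMA, chr6:32953166-32953216, minus strand: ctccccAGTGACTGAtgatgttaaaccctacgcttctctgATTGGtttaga

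The other 4 members with an entry did not hold that arrangement. HLA-DPA1 had 2 annotated starts, and HLA-DPA1 and HLA-DMB are shown around their X letters, HLA-DPB1 and CD74 around their Y letters.
HLA-DPA1, chr6:33073705-33073754, minus strand: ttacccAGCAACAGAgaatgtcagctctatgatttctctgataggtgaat
HLA-DMB, chr6:32941073-32941122, minus strand: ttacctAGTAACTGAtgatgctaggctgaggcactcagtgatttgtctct
HLA-DPB1, chr6:33075885-33075925, plus strand: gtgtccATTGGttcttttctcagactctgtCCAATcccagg
CD74, chr5:150412953-150412993, minus strand: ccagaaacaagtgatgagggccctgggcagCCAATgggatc

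Among these entries the Y letters of HLA-DRB1 began 46 bases before the start and those of HLA-DQB1 88 bases before it. In HLA-DMB, a match to X on the opposite strand and a match to Y near the start shared a base. A match to the κB consensus, the letters NF-κB binds, was found in 1 of the 8 members. It lay 20 bases before the CD74 start, and 5.21% of all promoters held such a match. These matches are letters only, and no binding was measured here.

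**Figure D1:**
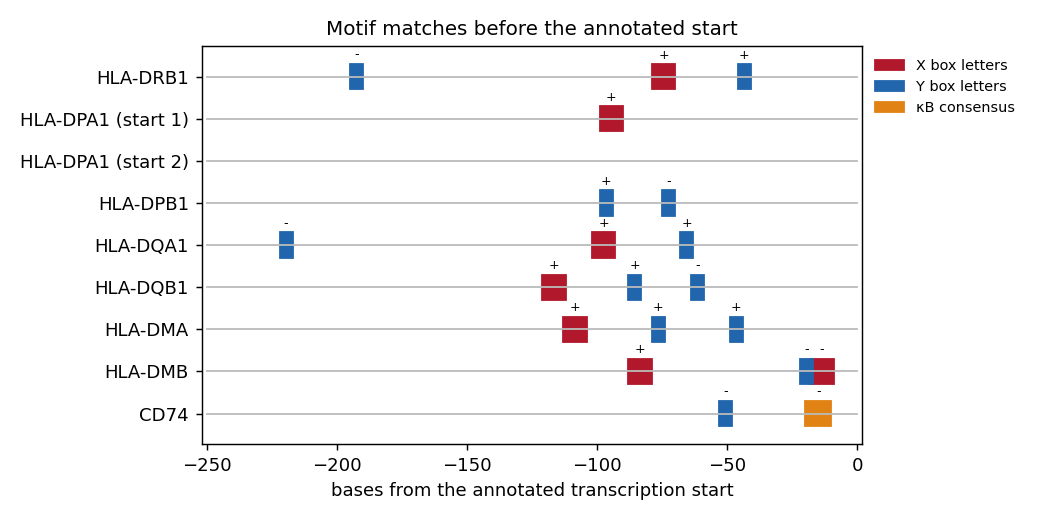
Positions of the searched letters along the 250 bases before each annotated start (x axis, bases relative to the start) for the 8 members with a promoter entry (rows, HLA-DPA1 with 2 starts). X letters followed by Y letters are seen in HLA-DRB1, HLA-DQA1, HLA-DQB1 and HLA-DMA, and the κB match stands in CD74 alone.

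The number of probes with a value was 11386, 10321, 13544 and 13872 on the arrays of days 1, 2, 3 and 4, of which 48, 40, 54 and 57 belonged to members. The SD over all probes was 0.52, 0.57, 0.34 and 0.38 on these arrays, so a ratio of a given size stood further from the bulk on days 3 and 4. Pearson's r between arrays over probes ran between 0.02 (days 1 and 4) and 0.57 (days 3 and 4). The HLA genes are closely related to one another, so a probe named for one chain may also have bound transcripts of another.

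The DR mean, over both chains, and CD74 had their lowest ratios on days 3 and 4, whereas DP was lowest on days 1 and 2 and CIITA was near or above 0 on days 3 and 4. HLA-DRA, the shared alpha chain of all HLA-DR molecules, had the lowest mean of the members. Its mean over probes was -0.54, -0.81, -1.71 and -1.31 on days 1, 2, 3 and 4, a mean over arrays of -1.09 ± 0.52 (SD, n = 4). The order by mean over arrays was HLA-DRA, CD74 (-0.62 ± 0.34), HLA-DPA1 (-0.58 ± 0.39), HLA-DQB1 (-0.57 ± 0.11), HLA-DRB1 (-0.47 ± 0.23), HLA-DQA1 (-0.32 ± 0.079), HLA-DPB1 (-0.32 ± 0.28), CIITA (-0.12 ± 0.37) and HLA-DMB (0.033 ± 0.25), each over 4 arrays. HLA-DRA and CD74 differed by -0.47 ± 0.20 within arrays, beyond the SD of that difference, and HLA-DRA was lower on 4 of 4 arrays. Every other pair of neighbours in this order differed by less than the SD of its own difference.

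The mean over all 4 arrays passed the test for 0 of the 9 members (limma, Benjamini-Hochberg adjusted p over 7713 features, threshold 0.05), and 0.182% of features (14) passed as lower and 12 features as higher. The smallest adjusted p in limma among the members was 0.109 for HLA-DRA, which ranked number 18 from the lowest of the 7713 features by mean, a rank from the highest if the ratio ran the other way. The means of 8 of the 9 members were below 0, with a member median of -0.47, against 4323 of 7713 features and a median of -0.032. The slope on day also passed for 0 of the 9 members, against 0% of 6427 features. The HLA-DRA slope was -0.32 ± 0.13 per day (SE, limma adjusted p = 0.333) and the CD74 slope -0.20 ± 0.11. HLA-DPA1 (0.20 ± 0.12), HLA-DPB1 (0.20 ± 0.088) and CIITA (0.18 ± 0.12) had slopes above 0. Single arrays and probes set the size of these slopes. Without day 4 the HLA-DRA slope was -0.59 and the CD74 slope -0.40, and without day 1 the CD74 slope was -0.098, the HLA-DPA1 slope 0.43 and the CIITA slope 0.42. Without day 2 the CIITA slope was 0.12, and without day 4 it was 0.11. Over probes with all 4 values the HLA-DPB1 slope was 0.052, and with its fewest-missing probe 0.025.

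HLA-DRA was read by 5 probes. Probe 17241_1 had -0.308, -0.341, -1.753 and -1.852 on days 1, 2, 3 and 4. Probe 27731_1 had -0.636, -1.125, -1.762 and -1.555. Probe 33585_1 had -0.859, -0.863, -1.846 and -1.842. On these probes both later arrays were below both earlier ones. Probe 26940_1 had -0.338, -0.894, -1.463 and -1.296, with the same order. Probe 24394_1 had a value on day 4 alone, -0.015, and it drew the HLA-DRA mean of that day up: over the 4 probes with all values the day means were -0.54, -0.81, -1.71 and -1.64. The slope over those 4 probes was -0.42 ± 0.11 per day, against -0.32 over all 5.

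HLA-DRB1, a polymorphic DR beta chain, was more mixed between probes, with means over all 7 of -0.17, -0.70, -0.59 and -0.41 on days 1 to 4, lowest on day 2. Probe 16988_1 had -0.620, -0.803, -1.144 and -0.837 on days 1 to 4. Probe 17711_1 had -0.015, -0.561, -1.085 and -0.991. Probe 27415_1 had 0.061, -0.632, -1.140 and -0.871, so all 3 probes with every value were lowest on day 3. The other 4 were incomplete: 24396_1 had -0.707 and -0.559 on days 3 and 4, and 29911_1 had -0.357 and -0.019. Probe 31842_1 had -0.823, 0.268 and 0.302 on days 2, 3 and 4, and 35149_1 had -0.117, 0.014 and 0.075 on days 1, 3 and 4. These incomplete probes moved the day 3 mean to -0.59, against -1.12 over the 3 complete ones, and the slope to -0.06 ± 0.11, against -0.26 ± 0.11. Without day 1 the HLA-DRB1 slope over all probes was 0.15.

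CD74, read by 12 probes, had probe means of -0.22, -0.52, -1.02 and -0.71 on days 1 to 4. Probe 30079_1 had the lowest mean of its probes, with -0.800, -1.093, -1.721 and -1.438. Its mean of -1.26 was the only call among the member probes when each probe was fitted singly (limma, adjusted p = 0.0396 over 11669 probes, of which 0.231% passed as lower). Probe 37481_1 had -0.387, -1.016, -1.886 and -1.479, and 27853_1 had -0.291, -0.940, -1.323 and -1.472. These 3 probes were lower on both later days than on either earlier day.

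Probe 27841_1 of CD74 had -0.029, -0.654, -1.352 and -1.374 on days 1 to 4. Probe 27730_1 had -0.222, -0.428, -1.257 and -1.097, and 33554_1 had -0.288, -0.561, -1.285 and -1.029. Probe 34367_1 had -0.459, -0.830, -1.108 and -0.958 over the 4 days, and 19356_1 had -0.046, -0.317, -0.996 and -0.857. Probe 27842_1 stayed close to 0, with 0.304, -0.012, -0.147 and 0.193. Probe 34251_1 had 0.028, 0.699, -0.463 and 0.117, a different pattern. The probes without all values were 23924_1, with 0.303 and 0.915 on days 3 and 4, and 30295_1, with -0.066 on day 4. The CD74 probes thus differed in size and in sign. On day 3, 8 lay between -1.886 and -0.996, 27842_1 and 34251_1 were nearer 0, and 23924_1 was above 0. On day 4, 23924_1, 27842_1 and 34251_1 were above 0. Over the 10 probes with every value the CD74 day means were -0.22, -0.52, -1.15 and -0.94.

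**Figure D2:**
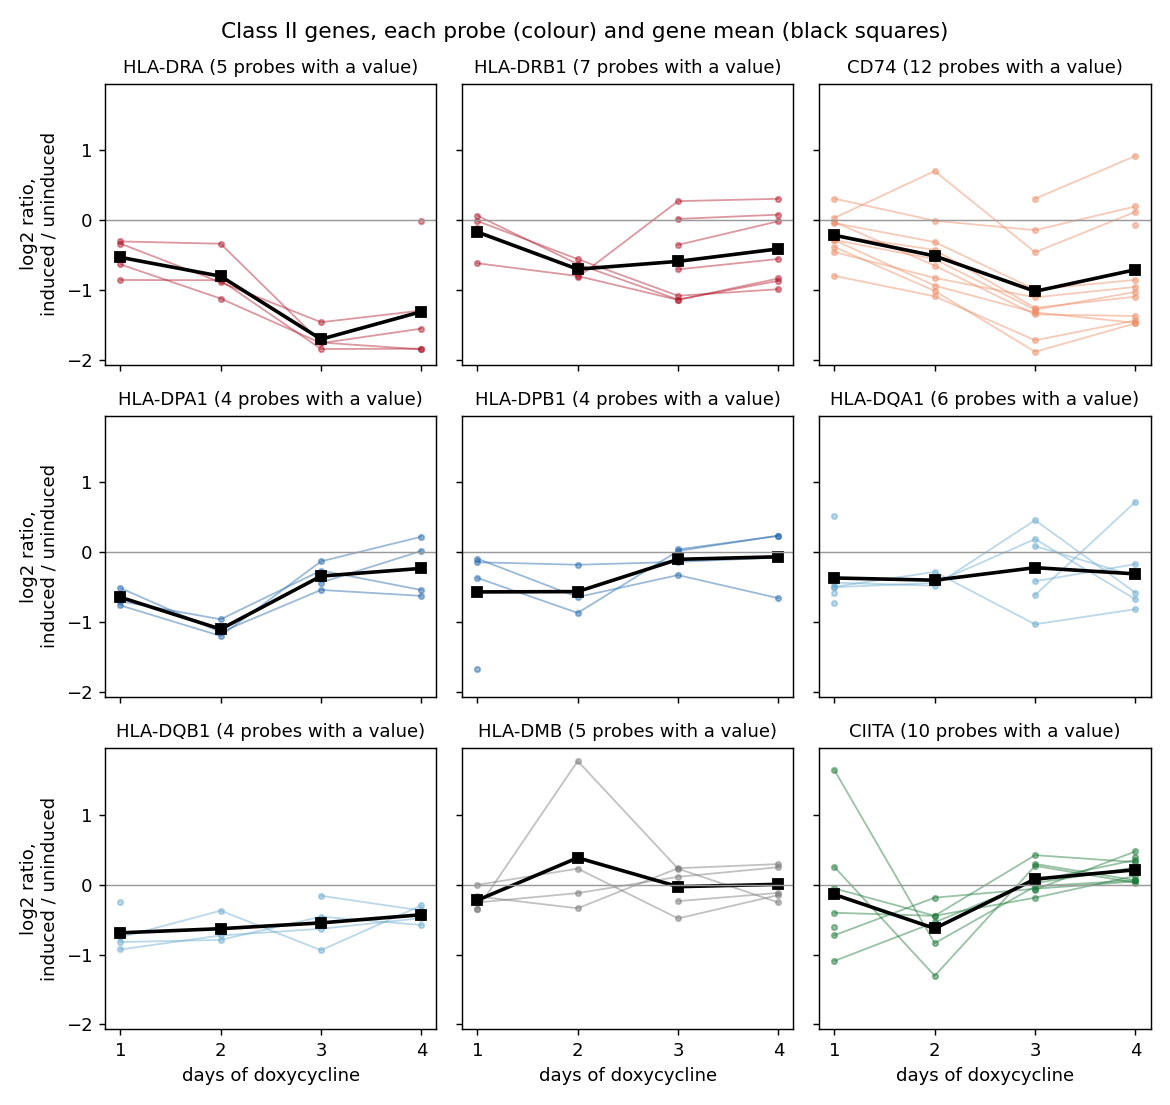
Log2 ratio of induced over uninduced cells (y axis) by day of induction (x axis) for every probe of each member (thin coloured lines and points) and the mean over its probes (black line). The HLA-DRA and CD74 lines lie lower on days 3 and 4 in most probes, and the probes of CIITA spread from -1.305 to 1.638 on days 1 and 2 and lie closer to 0 on days 3 and 4.

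All 17 DR and CD74 probes with 4 values had a lower mean on days 3 and 4 than on days 1 and 2, with a median difference of -0.75. Of the other 22 member probes with 4 values, 6 did, with a median difference of 0.33. The plan kept DR and CD74 apart, so this split is a description of these values and no test. Probes with missing values are not counted. Of these, 31842_1 and 35149_1 of HLA-DRB1 and 23924_1 of CD74 were above 0 on days 3 and 4. The others of DR and CD74 (24394_1, 24396_1, 29911_1 and 30295_1) were below 0 where they had a value. Over all 9242 probes with 4 values, 46.6% had the lower later mean and the median difference was 0.036. No day slope passed among the 9242 probes (0%). The member probes share genes and arrays and are not independent of each other. Of the same probes, 14 of the 17 DR and CD74 probes were below 0 on all 4 arrays, and 22 of all 39 member probes were, against 13.2% of the 9242 probes.

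**Figure D3:**
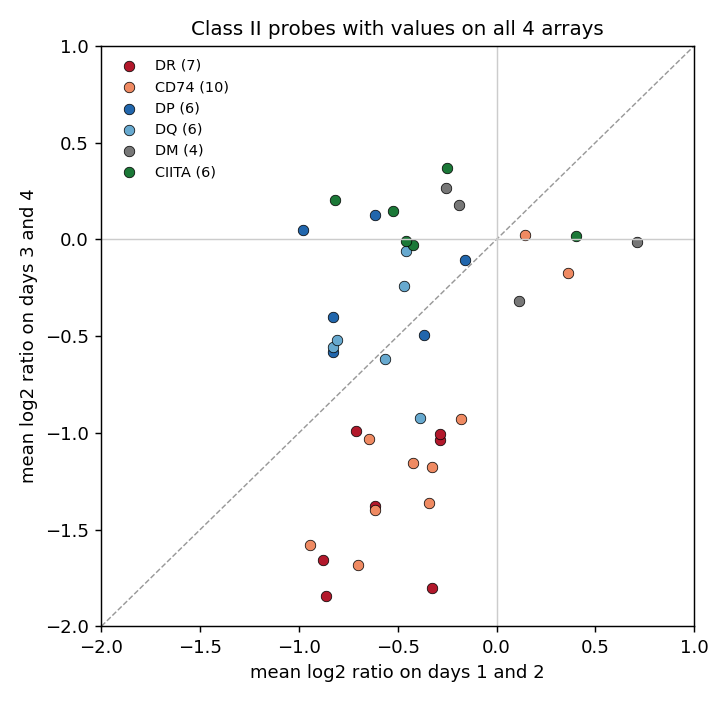
For each member probe with values on all 4 arrays, the mean log2 ratio of days 3 and 4 (y axis) against that of days 1 and 2 (x axis), with colours for the subgroups and the line of equality. The 17 DR and CD74 points lie below the line, and 16 of the 22 other points lie above it.

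At the size of single spots, 2, 6, 15 and 10 member probes were at least 2-fold lower on days 1, 2, 3 and 4. On the same arrays 2.86%, 3.89%, 0.554% and 0.613% of all probes were. At least 2-fold higher were 1, 1, 0 and 0 member probes. The counts rest on base 2: if the deposited values were natural logs, an alternative added after seeing the data, 11, 17, 18 and 16 member probes would be 2-fold lower, against 8.21%, 9.85%, 1.52% and 2.1% of all probes. With the opposite direction of the ratio, each count of lower probes would be one of higher probes. In base 2, the 15 lower member probes of day 3 were 7 of 11 DR probes, 7 of 11 CD74 probes and 1 of 10 DQ probes. On day 4 they were 4 of 12 DR probes and 6 of 12 CD74 probes. On day 2 they were 1 DR, 2 DP, 2 CD74 and 1 CIITA probe, and on day 1 they were 1 DP and 1 CIITA probe. The lowest 1% of each array held 1, 0, 17 and 12 member probes on days 1 to 4. The 17 on day 3 were 8 CD74, 7 DR and 2 DQ probes, and the 12 on day 4 were 7 CD74 and 5 DR probes.

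Days 3 and 4 were also fitted alone, with 2 arrays. HLA-DRA (mean -1.51, limma adjusted p = 0.0019), CD74 (-0.87, 0.00998), HLA-DRB1 (-0.50, 0.0416) and HLA-DQB1 (-0.49, 0.0419) passed as lower than 0. They were 4 of the 9 members, against 3.12% of 8650 features called as lower. This alternative treats 2 days as samples of a common state. It set each mean against 0 and not against days 1 and 2. The means of days 1 and 2 were -0.67 for HLA-DRA, -0.37 for CD74, -0.44 for HLA-DRB1 and -0.66 for HLA-DQB1. HLA-DQB1 was thus not lower on the later days. Days 1 and 2 fitted alone called 0 members and 0.0152% of 6596 features as lower, so few calls of any kind were made on those days. The members that did not pass on days 3 and 4 had means of -0.29 (HLA-DPA1), -0.083 (HLA-DPB1), -0.265 (HLA-DQA1), -0.013 (HLA-DMB) and 0.145 (CIITA).

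HLA-DPA1 and HLA-DPB1, the chains of HLA-DP, were lowest on day 2 or days 1 and 2. HLA-DPA1 had probe means of -0.64, -1.10, -0.34 and -0.23 on days 1 to 4. Its probe 19327_1 had -0.701, -0.959, -0.262 and -0.540, 28197_1 had -0.511, -1.143, -0.539 and -0.624, and 32317_1 had -0.760, -1.197, -0.130 and 0.222. Day 2 was the lowest array for each. Probe 16527_1 had -0.602, -0.434 and 0.019 on days 1, 3 and 4.

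HLA-DPB1 had probe means of -0.57, -0.56, -0.10 and -0.065. Probe 36312_1 had -0.367, -0.868, 0.019 and 0.238, and 24489_1 had -0.092, -0.641, -0.327 and -0.657. Probe 17262_1 stayed between -0.179 and -0.075. Probe 25051_1, with -1.668 on day 1 and 0.040 and 0.234 on days 3 and 4, lowered the day 1 mean: over the 3 complete probes the HLA-DPB1 means were -0.20, -0.56, -0.15 and -0.16.

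The DQ chains were below 0 on every array by their probe means. HLA-DQB1, the DQ beta chain, had -0.69, -0.63, -0.55 and -0.43 on days 1 to 4. Its probe 17280_1 had -0.928, -0.728, -0.632 and -0.480, and 27764_1 had -0.822, -0.791, -0.459 and -0.578. Probe 17273_1 had -0.755, -0.373, -0.939 and -0.298, and 28325_1, missing on day 2, had -0.255, -0.161 and -0.370 on the others. HLA-DQB1 had a limma adjusted p of 0.123 over 4 arrays.

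HLA-DQA1, the DQ alpha chain, had means of -0.37, -0.40, -0.22 and -0.31, with probes that disagreed on day 3. Probe 19373_1 had -0.494, -0.281, -1.030 and -0.814, while 27587_1 had -0.435, -0.479, 0.458 and -0.580 and 27766_1 had -0.500, -0.439, 0.188 and -0.673. The incomplete probe 24883_1 had 0.525, -0.612 and 0.721 on days 1, 3 and 4. Probe 27573_1 had -0.583, -0.415 and -0.170 on those days, and 27585_1 had -0.721, 0.088 and -0.341. Different probes of HLA-DQA1 therefore gave opposite signs on day 3.

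HLA-DMB, the beta chain of the HLA-DM peptide exchanger, had means of -0.22, 0.38, -0.03 and 0.003 (limma adjusted p = 0.935). Of its 7 probes, 22102_1 and 28531_1 had no value, and 4 of the remaining 5 had every value. The day 2 mean rested on probe 31787_1, with -0.344, 1.766, 0.227 and -0.256. Probe 19386_1 had -0.256, -0.122, 0.111 and 0.248, 25012_1 had -0.170, -0.339, 0.234 and 0.293, and 28178_1 had -0.004, 0.228, -0.484 and -0.150. Probe 17804_1 had -0.344, -0.237 and -0.119 on days 1, 3 and 4.

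CIITA, the transactivator, had means of -0.14, -0.63, 0.08 and 0.21 (limma adjusted p = 0.776). Among its 11 probes, 24700_1 had no value and 6 had every value. Probe 17738_1 had -1.092, -0.540, 0.051 and 0.353, 33329_1 had -0.725, -0.187, -0.060 and 0.045, and 27952_1 had -0.403, -0.447, -0.188 and 0.125. Probe 30002_1 had 0.253, -1.305, 0.268 and 0.026, and 33594_1 had 1.638, -0.838, -0.026 and 0.062. The spread between CIITA probes was wide on days 1 and 2 and narrow on days 3 and 4.

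Probe 32312_1 of CIITA had -0.055, -0.446, 0.421 and 0.321, and 27939_1 had -0.608, -0.073 and 0.475 on days 1, 3 and 4. The remaining probes had values on later days only: 24525_1 had 0.022 and 0.245, 31966_1 had 0.295 and 0.061, and 32218_1 had 0.401 on day 4. On day 4 all 10 CIITA probes with a value were above 0, and on day 2 all 6 were below it.

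The subgroups were then compared within arrays. DR minus CD74 was -0.16 ± 0.052 and below 0 on 4 of 4 arrays. The DR mean joins 2 chains that differed here, and HLA-DRA alone was below CD74 on every array. HLA-DRB1 had -0.17, -0.70, -0.59 and -0.41 on days 1 to 4, against -0.22, -0.52, -1.02 and -0.71 for CD74. It was thus below CD74 on day 2 only. Over all probes, DR minus DP was 0.25, 0.08, -0.93 and -0.72 on days 1 to 4, and CD74 minus DP was 0.39, 0.32, -0.80 and -0.56. In these means the direction between the subgroups differed between the early and the later arrays. DR was lower than CIITA (-0.66 ± 0.57) and DM (-0.81 ± 0.47) on every array, as DP was lower than CIITA (-0.33 ± 0.11). With 1 probe a gene, that with the fewest missing values, DR minus CIITA was 0.628 on day 1, and DP minus CIITA was 0.67 on day 1 and -0.068 in mean, so that neither kept 1 sign. DR minus CD74 was then -0.40. With the same probe, DR minus DP was -0.042, -0.003, -1.25 and -1.04 on days 1 to 4, so its change of direction was lost. CD74 minus DP still changed direction, with 0.38, 0.25, -0.80 and -0.55. A total of 6 of 15 pairs kept the same sign on all 4 arrays, and their exact sign-flip permutation p was 0.125, the smallest that 4 arrays allow (Benjamini-Hochberg 0.3125 over the pairs). Tests of the change of a difference with day, added after the values were seen, gave an exact permutation p of 0.25 for DR minus DP and for CD74 minus DP, and 4 days allow no p below 0.0833.

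**Figure D4:**
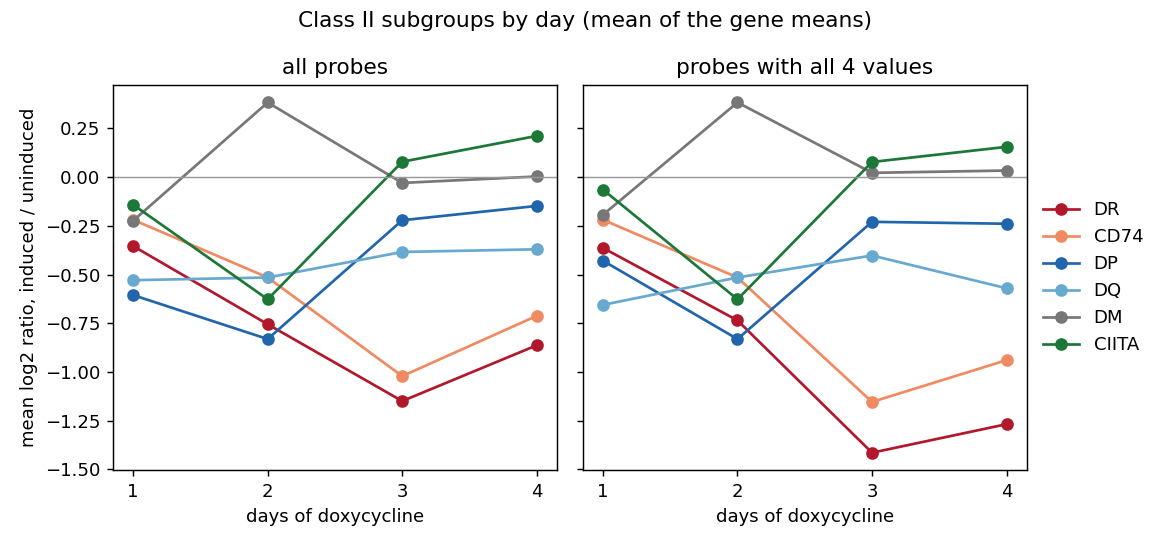
Mean log2 ratio of induced over uninduced cells (y axis) by day (x axis) for DR, CD74, DP, DQ, DM and CIITA, over all probes and over probes with all 4 values. DR and CD74 are lowest on day 3, DP is lowest on day 2, and DM and CIITA lie between -0.03 and 0.21 on days 3 and 4.

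The genes around the members did not show one direction. Of 8 factors that bind class II promoters (the RFX, NF-Y and CREB families), 5 were tested and none passed. RFXAP had a mean of -0.37 ± 0.34 and RFX5 of -0.26 ± 0.28. The other 3 had means above 0, and the median of the list was 0.10. Among 13 tested CIITA regulators and partners, none passed. Of their means 6 were below 0 and 7 above, with a median of 0.048. PRDM1, the plasma cell repressor of CIITA, had 0.30 ± 0.47 and HDAC1, a histone deacetylase, 0.77 ± 0.79. On days 1 to 4 PRDM1 had 0.46, 0.89, -0.06 and -0.10, and HDAC1 had 1.16, 1.66, 0.31 and -0.07.

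Of 9 tested genes of class II processing and trafficking, 7 were above 0, with a median of 0.34, against -0.032 over all features. CTSB, the lysosomal protease cathepsin B, had 0.76 ± 0.063 (limma adjusted p = 0.0537), and CD63, a tetraspanin of late endosomes, 0.74 ± 0.28 (0.112). HLA-DOB, a chain of the HLA-DM inhibitor HLA-DO, was the only other class II chain with values and had 1.451, -1.067, 0.067 and 0.614 on days 1 to 4. Among ligands and partners of CD74, CXCR4, a chemokine receptor that pairs with it, had -0.10, -0.64, -0.74 and -1.10, and DDT, a relative of the CD74 ligand MIF, had a mean of 0.38 ± 0.38. Class I genes had a median of 0.078 over 4 tested, with B2M, the class I light chain, at 0.42 ± 0.11 and HLA-E at 0.24 ± 0.13. HLA-B, at -0.085 ± 0.17, and HLA-G, at -0.14 ± 0.25, had means below 0. None of these genes passed.

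Marker lists of plasma, B and other blood cells were set beside these values. Of 10 plasma cell markers, 8 had means above 0, with list medians of 0.57, 0.70, 0.24 and 0.13 on days 1 to 4. Of 8 B cell markers, 6 had means below 0, with list medians of -0.32, -0.020, 0.097 and 0.14, and 6 of 7 with values on all arrays had a slope above 0. The medians of 10 monocyte, macrophage and dendritic cell markers were -0.23, -0.035, -0.16 and 0.21. The 10 T and NK cell markers had a median of 0.0995 for their means. Over all features tested, 4323 of 7713 means were below 0 and 3485 of 6427 slopes above 0. The medians of these features were -0.062, -0.081, 0.017 and 0.0115 on days 1 to 4. The part of these lists in the member ratios was not tested.

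The named genes outside the lists whose 4 ratios lay nearest to those of HLA-DRA, by Euclidean distance among 3700 candidates, were IL2RG (0.71), ZYG11B (0.72), DPYSL2 (0.78), RAP2A (0.90) and FAS (0.93). IL2RG is the shared cytokine receptor gamma chain and FAS a death receptor. IL2RG had -0.78, -1.13, -1.15 and -1.13 on days 1 to 4. Among the members CD74 was nearest to HLA-DRA, at 1.01, followed by HLA-DQB1 at 1.474 and HLA-DRB1 at 1.479, and CIITA and HLA-DMB were farthest, at 2.39 and 2.46.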

How the data were processed

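Total RNA of induced and uninduced EJM cells was compared on 4 two-colour arrays, per the labels' protocols. The deposited values were taken as log2 ratios per probe. Their base, direction, background correction, normalization and spot filter were not stated in the sources used here. Probe symbols came from the platform annotation (10169 probes with 1 symbol, 4 with several, 5073 unnamed) and were updated by Entrez identifier with RefSeq (10128 matched). Probes of a symbol were averaged per array, giving 9681 features. limma 3.58.1 in R 4.3.3 (lmFit, eBayes, two-sided, Benjamini-Hochberg) tested the mean against 0 with values on at least 3 arrays and the slope on day with all 4. Subgroup differences had exact permutation tests in Python 3.11.15. The scripts were tested on simulated data. The members and gene lists were chosen with earlier results of these data known. Named genes were all members, per list any past the threshold and otherwise the 2 with the largest absolute mean, and the 5 nearest to HLA-DRA. Arrays are different days, and nothing says they came from separate cultures, so a p-value reflects the spread among these arrays only, and their number limits the precision. Neither dye bias nor a direct doxycycline effect was removed from the ratios. Alternatives were other probe summaries, array weights, scaling, complete values and leaving out arrays.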

Additional observations from a re-analysis of the deposited data

Results flagged for a closer look

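In 48 sets of 4 values, 2 had a single array far from the other 3, where chance gives about 1 in 20. The share found was no higher than that. The sets were gene means and probes of the same genes, so they are not independent. The HLA-DQA1 probe 27587_1 had 0.458 on day 3, above -0.435, -0.479 and -0.580 on days 1, 2 and 4. The CIITA probe 30002_1 had -1.305 on day 2, below 0.253, 0.268 and 0.026 on days 1, 3 and 4.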

How the results depend on the processing

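The mean over 4 arrays called 26 features and 0 members. The count of features was 144 with array weights, 42 with values on all 4 arrays, 55 with each probe fitted singly, 569 with days 3 and 4 alone, 1 with days 1 and 2 alone, and 3 to 5 when 1 array was left out. With probes holding all 4 values, added after seeing the data, days 3 and 4 gave 878 and days 1 and 2 gave 3. Members called were 3 with array weights (HLA-DRA -1.37, CD74 -0.79, HLA-DQB1 -0.53), 4 with days 3 and 4 alone, 4 with days 3 and 4 and complete probes, and 1 with each probe. The HLA-DMB mean turned to -0.0048 with the fewest-missing probe, -0.053 with the median of probes and -0.013 on days 3 and 4, and ran from -0.083 (without day 2) to 0.12 with 1 array left out. The CIITA mean turned to 0.031 with array weights, 0.15 on days 3 and 4 and 0.12 with complete probes there, and ran from -0.23 to 0.050 (without day 2) with 1 array left out. The HLA-DQA1 slope turned to -0.029 with scaled arrays, -0.17 with the fewest-missing probe and -0.037 with complete probes, and the HLA-DQB1 slope to -0.015 with scaled arrays. With 1 array left out the HLA-DRB1 slope ran from -0.21 to 0.15 (without day 1) and the HLA-DMB slope from -0.19 (without day 1) to 0.097. The cause of these moves was not tested. Of 144 member means under alternatives, 125 kept their side and direction, 11 passed the threshold and 8 turned. Of 90 slopes, 84 kept both and 6 turned. Of 105 subgroup differences under alternatives, 4 moved by more than their SD: DR minus CD74 was -0.24 with complete probes and -0.40 with the fewest-missing probe, and with that probe DP minus DQ was 0.25 and DP minus CIITA -0.068. Pairs with 1 sign over 4 arrays were 6, and 7, 5 and 6 with complete probes, the fewest-missing probe and scaled arrays, sharing 6, 4 and 6 with the first count. With 1 array left out, 3 arrays gave 6 to 9. Each value is already a ratio of induced to uninduced cells on the same array. Limits are 1 array a day, no spot intensities, and missing values that differ between days.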
